A study of Mus musculus with 20 samples.

Results

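The unfolded protein response (UPR) and the integrated stress response (ISR) were examined in aged mouse quadriceps through 10 genes: Eif2ak3, Ern1, Atf6, Atf4, Xbp1, Ddit3, Trib3, Hspa5, Dnajb9 and Herpud1. They were picked by symbol, with no expression value in the rule, from the 55416 genes for which reads had been counted. All 10 had enough reads to be among the 14471 genes tested. The muscles came from wild type C57BL/6J males aged 26 to 28 months, each fasted for 4 h, and were collected 3 h after a single intramuscular injection of 50 µL. Controls (n = 10) were given 0.9% saline. The secretome group (n = 10) was given a cell-free product made from medium conditioned by partially differentiated human embryonic stem cells. Each library was 1 quadriceps of 1 mouse, all mice were old males, and every muscle had been injected, so the data hold no young or uninjected muscle.

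The UPR answers an excess of unfolded protein in the endoplasmic reticulum (ER), the compartment where secreted and membrane proteins fold, and in skeletal muscle the same membrane system also stores calcium. Its sensors are the kinase PERK (Eif2ak3), the kinase and endoribonuclease IRE1 (Ern1) and the membrane-bound transcription factor ATF6, and their outputs are more chaperones, more degradation of misfolded protein and less translation. PERK shares its substrate, the translation factor eIF2, with kinases that sense amino acid shortage, haem shortage and double-stranded RNA, and this common branch, which raises translation of ATF4, is the ISR. Much of the pathway is switched by splicing of Xbp1 mRNA, cleavage of ATF6, phosphorylation of eIF2 and translation of Atf4, none of which a read count per gene can show.

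Between 13286983 and 22987237 reads per library were counted on genes. The share taken by Ttn, which encodes the sarcomere protein titin, separated the libraries by the numbers in their labels: 7.02% to 11.03% in control libraries 1 to 5, 16.4% to 21.1% in control libraries 6 to 10, 17.8% to 20.7% in secretome libraries 11 to 15 and 14.2% to 14.7% in secretome libraries 16 to 20. No label calls these ranges a batch. Each comparison was therefore also made within libraries 6 to 15, with 5 mice of each treatment, and between control libraries 1 to 5 and secretome libraries 16 to 20, where range and treatment cannot be told apart. The 6 muscle fibre markers summed to between 67671 and 120600 CPM (read counts scaled to a common library size) in every library. Summed macrophage markers spanned 75.3 to 214 CPM in controls and 46.1 to 171 CPM after secretome. At an unadjusted p under 0.05, 3 of the 6 were lower, beside 1333 of all 14471 genes tested. Of the 4 tested B and plasma cell markers, 3 were also lower at that level. None of either list passed a 5% false discovery rate in edgeR, while DESeq2 passed 1 of 6 macrophage markers (Csf1r) and 4 of 7 B and plasma cell markers (Igkc, Jchain, Cd79a and Ms4a1), all lower after secretome and named after their values were seen. DESeq2 passed 1.18% of all its genes with an adjusted p. Summed fibroblast markers also differed between library ranges. They were at 676 to 978 CPM in control libraries 1 to 5 and 176 to 427 CPM in control libraries 6 to 10. In secretome libraries they were at 270 to 384 CPM in 11 to 15 and 457 to 600 CPM in 16 to 20. The part of such cells in the values below was not tested. In a whole muscle, fewer cells of a type and less RNA per cell cannot be told apart.

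No gene of the 10 differed between secretome and saline at a 5% false discovery rate (edgeR quasi-likelihood test, Benjamini-Hochberg adjustment over all genes tested), against a background of 0.00691% of all genes tested, which was 1 gene. Of the 10, 2 had an unadjusted p under 0.05, Atf6 and Dnajb9, both higher after secretome, beside 15.7% of all genes tested in either direction and 6.52% that were higher. With a term for the 3 library ranges neither was under it (edgeR unadjusted p = 0.178 for Atf6 and 0.141 for Dnajb9). That term leaves libraries 6 to 15 to carry the treatment difference, while the error is estimated from all 20. Across 6 alternative fits of all 20 libraries, this one among them, the log2 fold change stayed at 0.19 to 0.25 for Atf6. For Dnajb9 it stayed at 0.39 to 0.47. DESeq2 also passed 0 of 10, beside 1.18% of its genes with an adjusted p, and had 2 of 10 at an unadjusted p under 0.05, beside 9.26% of its genes. That 9.26% was over 32456 genes, which were not filtered for low counts as the 14471 were. The median log2 fold change over the 10 was 0.0037, with 5 above and 5 below 0, and over all genes tested it was -0.03. Within libraries 6 to 15 the count past the false discovery rate was again 0 of 10, where the background was 0%, and Atf6 and Dnajb9 were again the 2 genes at an unadjusted p under 0.05, beside 9.95% of all genes in either direction and 5.02% higher. Between the other 10 libraries, where the background past the false discovery rate was also 0%, 1 of 10 was at an unadjusted p under 0.05, Eif2ak3, which was lower, beside 16.1% of all genes in either direction and 9.56% lower. The 95% confidence intervals over all 20 libraries were narrowest for Ern1, from -0.12 to 0.20 on the log2 scale, and widest for Trib3, from -1.18 to 0.06.

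**Figure D1:**
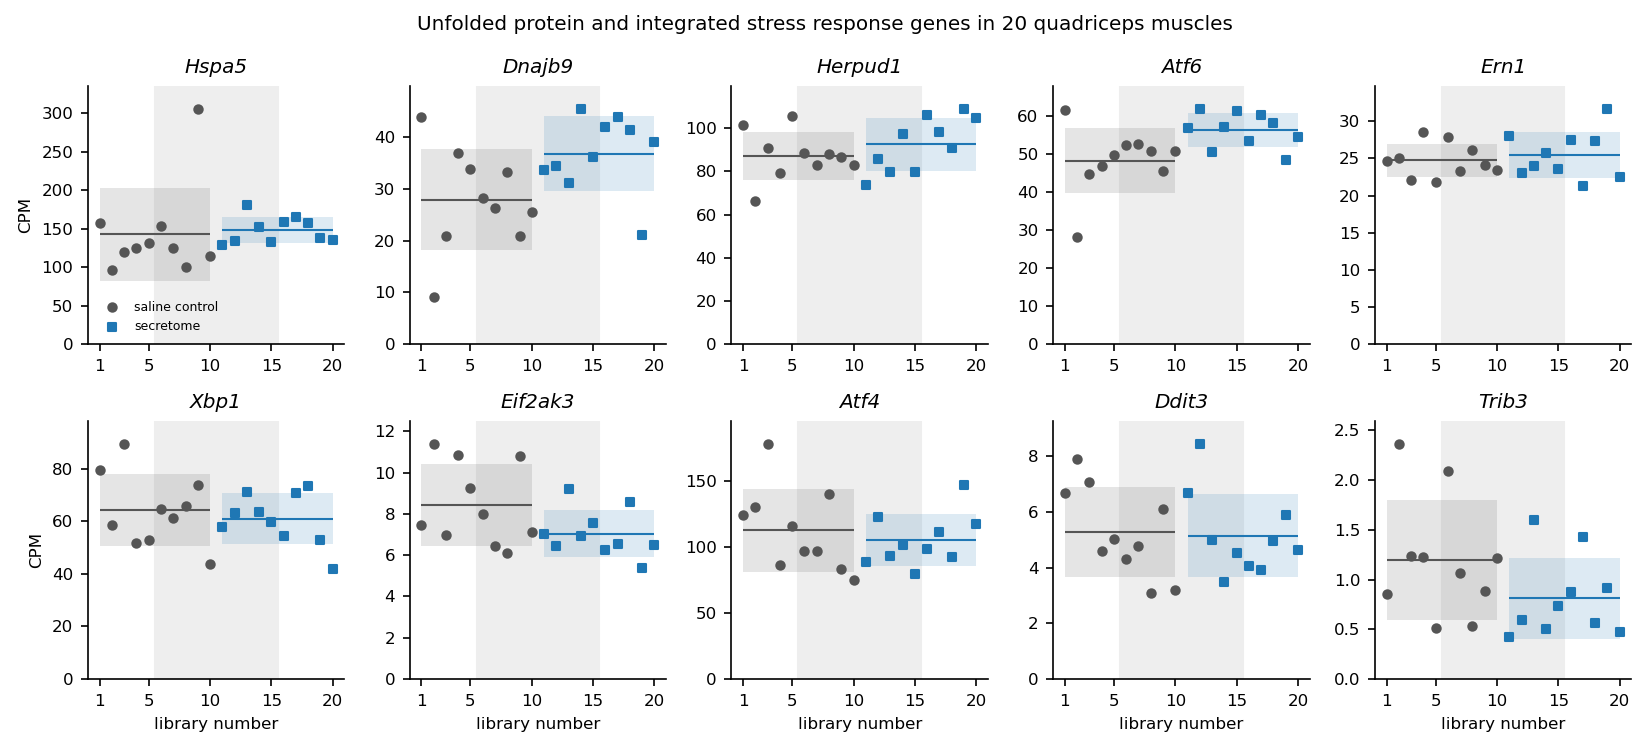
CPM of each of the 10 genes (y axis, from 0) against library number (x axis), with saline controls as grey circles and secretome as blue squares. Horizontal lines are group means, bands are 1 SD (n = 10 each), and the light grey block marks libraries 6 to 15. The groups overlap in all 10 panels, control 9 stands above the rest in Hspa5 (305 CPM), and control 2 stands below the rest in Dnajb9 (9.13 CPM) and Atf6 (28.3 CPM).

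Per kilobase of annotated exon, the 10 genes spanned a wide range in control muscle. The medians over the 10 controls were 45.0 CPM per kb for Atf4, 37.4 for Herpud1, 29.6 for Hspa5, 19.4 for Xbp1 and 10.7 for Dnajb9. They were 5.45 CPM per kb for Atf6, 2.98 for Ern1, 2.87 for Ddit3, 1.28 for Eif2ak3 and 0.539 for Trib3. The ER chaperone and degradation genes and the mRNAs of ATF4 and XBP1 thus stood above the sensors, and the stress-induced effectors Ddit3 and Trib3 stood among the lowest. Neighbours in this order were mostly separated mouse by mouse: Hspa5 exceeded Xbp1, Xbp1 exceeded Dnajb9, Dnajb9 exceeded Atf6, Ddit3 exceeded Eif2ak3 and Eif2ak3 exceeded Trib3 in 10 of 10 controls. Atf6 exceeded Ern1 and Herpud1 exceeded Hspa5 in 9 of 10, and Atf4 exceeded Herpud1 in 8 of 10. Ern1 and Ddit3 were not separated, since Ern1 was above Ddit3 in 5 of 10 controls.

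**Figure D2:**
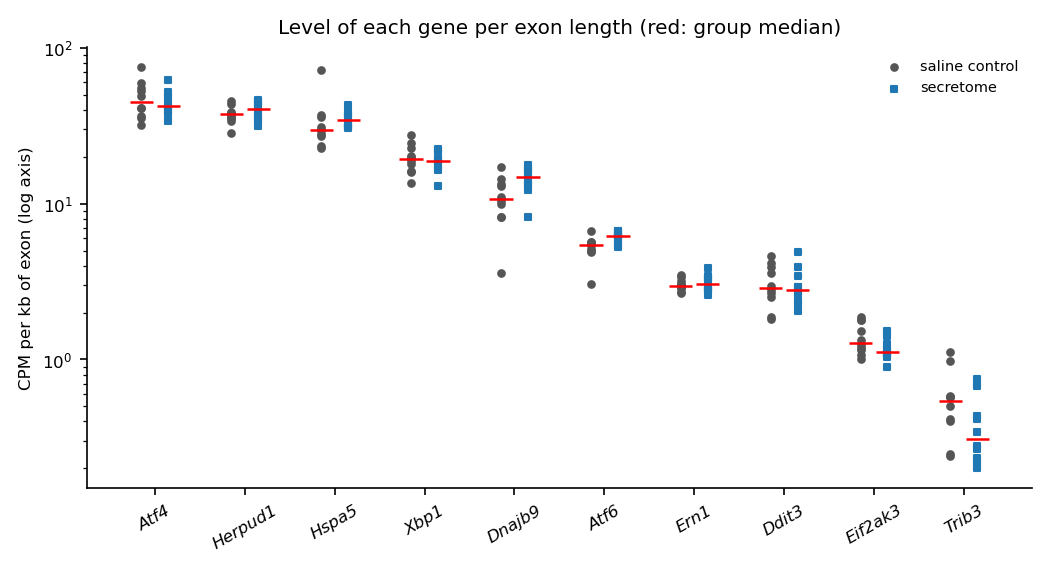
CPM per kb of exon on a log axis for each gene, ordered by control median, with controls as grey circles, secretome as blue squares and group medians as red lines. Control medians run from 45.0 (Atf4) to 0.539 (Trib3), and the order is far wider than the difference between treatments in any gene.

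Among the sensors, Eif2ak3 (ENSMUSG00000031668), which encodes PERK, ranged from 6.08 to 11.4 CPM in controls with a median of 7.73, and from 5.40 to 9.21 CPM with a median of 6.74 after secretome. The groups overlapped, with 8 of 10 secretome muscles below the control median. Secretome over saline gave a log2 fold change of -0.26 ± 0.13 (SE, n = 10 and 10; edgeR adjusted p = 0.335). It was -0.04 within libraries 6 to 15 (edgeR adjusted p = 0.949) and -0.47 between the other libraries (edgeR adjusted p = 0.254), where 4 of 5 secretome muscles were below the lowest of the 5 controls. A test of the difference between these log2 fold changes gave 0.40 ± 0.25 (edgeR adjusted p = 0.594). In the mouse annotation used for symbols, 485 exon bases of Eif2ak3 lie under the unnamed gene model Gm43292 on the opposite strand, and the strand setting of the counting is not given in the sources used here.

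Ern1 (ENSMUSG00000020715), which encodes IRE1α, varied least. Controls spanned 21.9 to 28.6 CPM with a median of 24.4, and secretome muscles spanned 21.2 to 31.6 CPM with a median of 24.8. The coefficient of variation over all 20 libraries was 10.7%, and 5 of 10 secretome muscles lay above the control median. Its log2 fold change was 0.04 ± 0.08 (edgeR adjusted p = 0.82), and 0.0038 ± 0.09 within libraries 6 to 15 (edgeR adjusted p = 0.99).

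Atf6 (ENSMUSG00000026663), whose protein is cut in the Golgi to release a transcription factor, ranged from 28.3 to 61.6 CPM in controls with a median of 50.3. After secretome it ranged from 48.4 to 61.8 CPM with a median of 57.1, and 9 of 10 muscles were above the control median. The groups overlapped, and the lowest control, control 2, was well below the next, at 44.9 CPM. The log2 fold change was 0.22 ± 0.10 (95% confidence interval 0.02 to 0.42, edgeR p = 0.0327, adjusted p = 0.278). It was 0.20 ± 0.09 within libraries 6 to 15 (edgeR p = 0.0403, adjusted p = 0.491; p = 0.0954 with no filter on low counts), and 4 of 5 secretome muscles lay above the highest control. Between the other libraries it was 0.25 ± 0.17 (edgeR adjusted p = 0.487), and without control 2 the value over the remaining 19 libraries was 0.15.

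The transcription factor Atf4 (ENSMUSG00000042406), the translated output of the ISR and a driver of amino acid synthesis and transport, was the most abundant of the 10 per exon length. Controls spanned 75.3 to 178 CPM with a median of 106, and secretome muscles spanned 79.8 to 147 CPM with a median of 99.9. All secretome values fell inside the control range. Between treatments the log2 fold change was -0.10 ± 0.14 (edgeR adjusted p = 0.757), with an interval of -0.39 to 0.19.

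Xbp1 (ENSMUSG00000020484), whose mRNA is the substrate of IRE1, spanned 43.9 to 89.3 CPM in controls with a median of 63.1. After secretome it spanned 41.9 to 73.4 CPM with a median of 61.4, again with full overlap but for 1 muscle below the lowest control. Its log2 fold change was -0.08 ± 0.12 (edgeR adjusted p = 0.78). Spliced and unspliced Xbp1 were counted together.

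Ddit3 (ENSMUSG00000025408), which encodes CHOP, a factor linked to cell death under prolonged stress, had between 47 and 157 reads per library. Controls spanned 3.11 to 7.89 CPM with a median of 4.92, and secretome muscles spanned 3.49 to 8.43 CPM with a median of 4.80. Over all 20 libraries the groups lay on top of each other, with 5 of 10 secretome muscles above the control median and a log2 fold change of -0.03 ± 0.18 (edgeR adjusted p = 0.94). That value joined opposite ones. Within libraries 6 to 15 the log2 fold change was 0.39 ± 0.25, with control values of 3.11 to 6.10 CPM and secretome values of 3.49 to 8.43 CPM. Without secretome 2, the muscle with the most Ddit3, that value was 0.21. Between the other libraries it was -0.42 ± 0.20, with control values of 4.61 to 7.89 CPM and secretome values of 3.91 to 5.88 CPM, and 5 of 5 secretome muscles below the control median.

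The difference between the log2 fold changes of Ddit3 was 0.79 ± 0.33 (95% confidence interval 0.11 to 1.47, edgeR p = 0.0255), the only one of the 10 at an unadjusted p under 0.05. It did not pass the false discovery rate (edgeR adjusted p = 0.363). Over all genes in that test, 10.9% had an unadjusted p under 0.05, 5.44% in this direction, and 0.0451% were past the false discovery rate. Without secretome 2 the difference was 0.60 (edgeR unadjusted p = 0.0732). Ddit3 shares 68 exon bases with the methionyl-tRNA synthetase gene Mars1 and 13 with the gene model Gm4189, both on the opposite strand. A second identifier annotated as Ddit3, sharing 105 exon bases on the same strand, had 0 reads in all libraries.

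Trib3 (ENSMUSG00000032715), a pseudokinase induced by ATF4 and CHOP that binds the kinase Akt, was the scarcest, with 7 to 45 reads per library. Controls spanned 0.510 to 2.36 CPM with a median of 1.14, and secretome muscles spanned 0.425 to 1.596 CPM with a median of 0.661. The groups overlapped, with 8 of 10 secretome muscles below the control median and 3 below the lowest control. The log2 fold change was -0.56 ± 0.30 (edgeR adjusted p = 0.368). It was -0.58 within libraries 6 to 15 and -0.53 between the others, with SEs of 0.42 and 0.43. Single muscles moved the value within libraries 6 to 15, to -1.04 without secretome 3 and to -0.25 without control 6. At this depth a difference of that size was within the error.

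**Figure D3:**
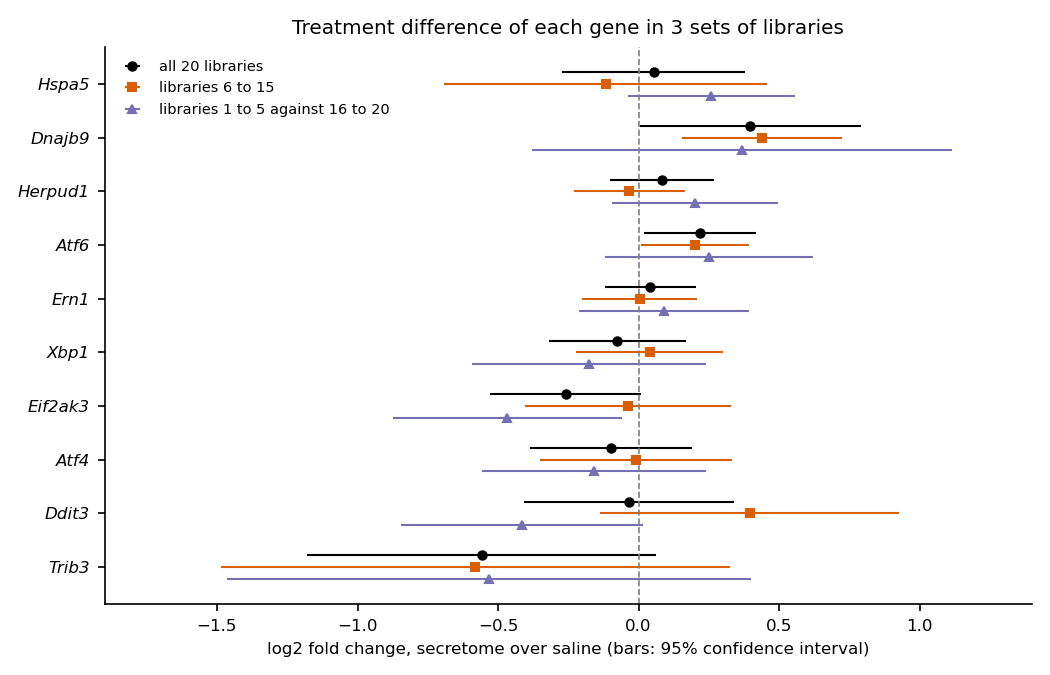
Log2 fold change of secretome over saline (x axis) for each gene, over all 20 libraries (black circles), within libraries 6 to 15 (orange squares) and between libraries 1 to 5 and 16 to 20 (purple triangles), with bars for the 95% confidence interval. Atf6 and Dnajb9 lie to the right of 0 and Trib3 to the left in all 3 sets, while Ddit3 is at 0.39 within libraries 6 to 15 and at -0.42 between the others.

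Hspa5 (ENSMUSG00000026864) encodes BiP, the ER chaperone that holds the sensors inactive until unfolded protein draws it away. Controls spanned 96.7 to 305 CPM with a median of 125, and secretome muscles spanned 129 to 181 CPM with a median of 145. The secretome values were the tighter, at 148 ± 17.2 CPM (SD, n = 10) against 143 ± 60.2 CPM (SD, n = 10), and 10 of 10 were above the control median, yet none was above the highest control. That control, control 9, had 5492 reads on Hspa5, and the other 9 controls lay between 96.7 and 157 CPM. The log2 fold change was 0.05 ± 0.16 with all libraries (edgeR adjusted p = 0.889) and 0.25 without control 9 (edgeR p = 0.0167, adjusted p = 0.256). Of the 20 fits with 1 library left out, only that 1 had an unadjusted p under 0.05 for Hspa5. The value within libraries 6 to 15 was -0.12 with control 9 and 0.25 without it (edgeR adjusted p = 0.886 and 0.604), and it was 0.26 between the other libraries, which do not contain control 9 (edgeR adjusted p = 0.369).

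Control 9 was also high in other ER folding genes. Of 20 tested genes in a list of ER chaperones and folding enzymes, 9 had their highest value of all 20 libraries in control 9, and 17 were above the median of the other 19. Of all genes tested, 10.1% were highest in control 9 and 50.2% were above that median. Creld2, a small ER protein induced by the UPR, was at 12.5 CPM in control 9 against a median of 4.36 in the others, which is 2.86 times that median. Hyou1, a chaperone that exchanges the nucleotide of BiP, was at 76.9 CPM against 46.9. The disulphide isomerases Pdia3 and Pdia6 were at 54.8 against 33.5 CPM and at 47.6 against 29.8 CPM, and the lectin chaperone Calr was at 161 against 110 CPM. Hsp90b1 (GRP94) and Manf were not highest there, ranking 2 and 3, and Ero1b, an ER oxidase, was lowest of all there, at 2.28 against 3.78 CPM.

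Control 9 was not high in every arm of the response. Its Eif2ak3 was high for a control, at 10.8 CPM, but its Dnajb9 was low, at 20.9 CPM, and its Atf4 and Trib3 were below the mean of all libraries. Adipocyte markers summed to 118 CPM in it, the third highest of the 20, and macrophage markers to 153 CPM, the fourth highest, while the sums of the other 6 marker lists ranked between 8 and 16. Their part in the Hspa5 value was not tested.

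Many of the listed chaperones also varied with Hspa5 across the 20 mice. After subtracting the mean of each treatment within each library range, the correlation of log2 CPM with Hspa5 over 20 libraries was above 0.5 for 12 of the 20, with a median of 0.61, beside 5.79% of all genes tested and a median of 0.01. Without control 9 and control 8, the libraries farthest from the median, 9 of 20 were above 0.5, beside 3.27% of all genes. The subtracted means still included the libraries left out, here and in every correlation below that leaves 2 libraries out. Across all genes tested, the most alike were Psmc2, a proteasome ATPase subunit (r = 0.92), Pdia3 (r = 0.92) and Pdia6 (r = 0.89). Without those libraries the values were 0.85, 0.74 and 0.78. These libraries share depth, tissue makeup and library range, and the correlations are given as a description.

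**Figure D4:**
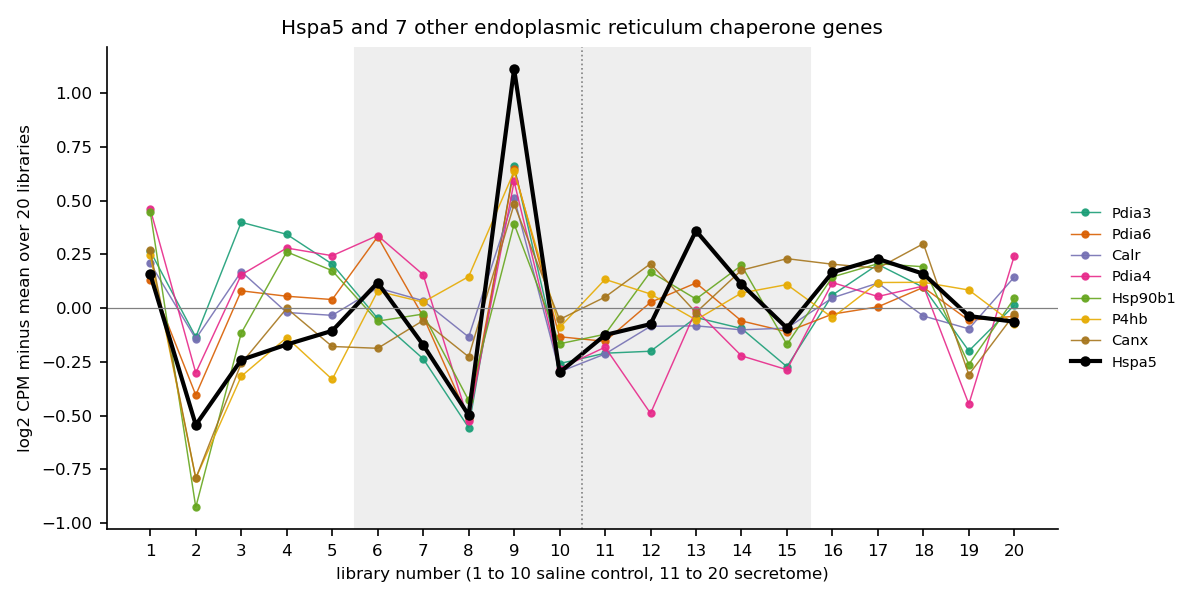
Log2 CPM minus the mean over the 20 libraries (y axis) for Hspa5 (black) and the 7 listed ER chaperone genes most correlated with it (colours), by library number (x axis). Lines only join the points of 1 gene, the grey block marks libraries 6 to 15 and the dotted line divides controls from secretome. All 8 genes are above their means in library 9, where Hspa5 is at 1.11, and below them in libraries 2 and 10.

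The promoters of several of these genes hold the same element, shown here because Hspa5 and the chaperones varied together. The ER stress response element (ERSE), spelled CCAAT, any 9 bases and CCACG and searched on both strands, is bound by NF-Y at CCAAT and by ATF6 at CCACG. It was searched in RefSeq windows (GRCm38.p6) from 250 bases before to 50 after each annotated start. It was in 39 of 32851 windows, or 0.119%. Among the 10 genes, 9 had a window, with none given for Atf6, and Hspa5 was the only one with an ERSE. In the chaperone list, 18 genes had a window and 7 held an ERSE: Calr, Canx, Creld2, Dnajc3, Ero1b, Hsp90b1 and Pdia6. The 30 bases around the element in Hspa5 (65 to 47 bases before the start, chr2:34772020-34772049, plus strand) and in Pdia6 (chr12:17266486-17266515, plus), Canx (chr11:50325794-50325823, minus), Calr (chr8:84847069-84847098, minus), Creld2 (chr15:88819515-88819544, plus) and Ero1b (chr13:12565677-12565706, plus) are written 5′ to 3′ on the strand of the gene, with the letters of the element that are fixed in capitals. In Calr, Creld2 and Ero1b the element is on the opposite strand, so it reads CGTGG before ATTGG.
Hspa5: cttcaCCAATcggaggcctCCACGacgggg
Pdia6: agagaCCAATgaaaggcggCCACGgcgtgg
Canx: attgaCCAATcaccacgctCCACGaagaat
Calr: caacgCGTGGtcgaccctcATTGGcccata
Creld2: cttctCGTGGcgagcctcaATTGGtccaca
Ero1b: ggcctCGTGGtcccgcctcATTGGccgccg
A match is a description of these letters and not of binding. Pdia6, Calr, Canx and Creld2 were highest in control 9 together with Hspa5, and Ero1b, with the same fixed letters, was lowest there. Of the other ERSE genes, Hsp90b1 ranked 2 and Dnajc3 ranked 3 there. Pdia3, Pdia4, P4hb, Hyou1 and Dnajb11 were also highest there and were not among the genes with an ERSE. Dnajb11 did hold the related element ERSE-II, described below for Herpud1. Pdia3, the listed gene most correlated with Hspa5, was not among the genes with an ERSE. Only 18 of the 21 listed genes had a window, so a gene not among those with an ERSE may not have been searched.

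Dnajb9 (ENSMUSG00000014905) encodes ERdj4, a BiP co-chaperone and a target of spliced XBP1. Controls spanned 9.13 to 43.9 CPM with a median of 27.3, and secretome muscles spanned 20.99 to 45.3 CPM with a median of 37.6. The groups overlapped, although 9 of 10 secretome muscles were above the control median. The log2 fold change was 0.40 ± 0.19 (95% confidence interval 0.0048 to 0.79, edgeR p = 0.0475, adjusted p = 0.312). Within libraries 6 to 15, controls spanned 20.9 to 33.2 CPM and secretome muscles 31.1 to 45.3 CPM, so that 4 of 5 secretome muscles were above every control. In these 10 libraries the log2 fold change was 0.44 ± 0.13 (edgeR p = 0.00516, adjusted p = 0.416), and it was 0.37 ± 0.34 between the other libraries (edgeR adjusted p = 0.619). The difference between these was 0.05 ± 0.40 (edgeR adjusted p = 0.98).

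Single muscles stood apart for Dnajb9 too. Control 2 was at 9.13 CPM against 20.9 CPM or more in the other 9 controls, and secretome 9 was at 20.99 CPM against 31.1 CPM or more in the other 9 secretome muscles. Without control 2 the log2 fold change was 0.29 (edgeR adjusted p = 0.395), and without secretome 9 it was 0.47 (edgeR adjusted p = 0.242). As each of the 20 libraries was left out, the unadjusted p stayed under 0.05 in 6 of 20 fits for Dnajb9 and in 16 of 20 for Atf6. It did so within libraries 6 to 15 in 10 of 10 fits for Dnajb9 and in 2 of 10 for Atf6.

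Herpud1 (ENSMUSG00000031770), an ER membrane protein that assists degradation of misfolded proteins, varied little. Controls spanned 66.1 to 106 CPM with a median of 87.3, and secretome muscles spanned 73.7 to 109 CPM with a median of 94.1. Its log2 fold change was 0.08 ± 0.09 (edgeR adjusted p = 0.666). It was -0.03 within libraries 6 to 15, where 3 of 5 secretome muscles were below and 1 was above the range of the controls, and 0.20 between the others, where 5 of 5 were above the control median. The test of the difference between these gave -0.25 ± 0.16 (edgeR adjusted p = 0.606).

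The Herpud1 promoter was the only one of the 9 windows with sequence words of both arms, and is shown for that reason. ERSE-II, spelled ATTGG, any base and CCACG, was in 0.0365% of all windows. TGATGCAA, a core of the element bound by ATF4 with C/EBP proteins, was in 0.895% of them and lies on the opposite strand in Herpud1, as TTGCATCA. Another word, TGACGTGG, bound by XBP1 and ATF6, was in 0.676% of windows and in none of the 9. The Herpud1 stretches are at chr8:94386368-94386397 and chr8:94386306-94386335 (GRCm38.p6, plus strand), with the whole match in capitals, the free letter of ERSE-II included.
Herpud1 ERSE-II: cgggcgctgATTGGGCCACGttggacactg
Herpud1 ATF4 word: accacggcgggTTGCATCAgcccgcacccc
TGATGCAA or its complement was also in 7 of 28 windows of the ATF4 and CHOP target list, among them Atf3, Chac1 and Vldlr, and in 4 of 12 windows of aminoacyl-tRNA synthetase genes. The correlation of Herpud1 with Atf4 was 0.27 (20 libraries, as described for Hspa5).

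The 10 genes did not vary as 1 unit across mice. Of their 45 pairs, 4 had a correlation above 0.5 after the means of treatment and range were subtracted, and 2 had one under -0.5. Among all genes tested, 20.311% had a correlation above 0.5 with Atf6 and 20.961% with Dnajb9. The share was 8.68% for Herpud1, 5.79% for Hspa5 and 4.72% for Eif2ak3. A correlation above 0.5 with Atf6 or Dnajb9 was thus not particular to the 10 genes. The highest of the 45 pairs was Atf6 with Dnajb9 (r = 0.89 over 20 libraries, 0.69 without control 1 and control 2). The lowest was Atf4 with Eif2ak3 (r = -0.63, and -0.50 without control 3 and control 8), so that mice with more Atf4 mRNA tended to have less Eif2ak3. Ddit3 with Dnajb9 was the other (r = -0.54). Atf6 with Herpud1 had r = 0.60 but -0.01 without control 1 and control 2, and Hspa5 with Eif2ak3 had r = 0.51 but 0.10 without control 8 and control 9.

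The genes most like Atf4 and Ddit3 were not listed UPR or ISR genes. For Atf4 they were Aebp1 (r = 0.85), the selenoprotein gene Selenow (r = 0.83) and the transcription factor gene Nfil3 (r = 0.83). For Ddit3 they were the zinc finger gene Zfp408 (r = 0.82), the dynactin subunit gene Dctn2 (r = 0.80) and the gene model Gm16576 (r = 0.79). Without the 2 libraries farthest from the median of each, these 6 values were between 0.73 and 0.86. Mars1, which overlaps Ddit3, had r = 0.49 with it.

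Control 2 was extreme in several of the 10 genes at once. It had the lowest Hspa5, Atf6, Dnajb9 and Herpud1 of all 20 muscles and the highest Eif2ak3 and Trib3. It was also the library with the fewest counted reads, 13286983, and the smallest Ttn share, 7.02%. Muscle fibre markers in it summed to 71368 CPM, the second lowest of the 20, and fibroblast markers to 738 CPM, the third highest. The part of these in its values was not tested.

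Around the 10 genes, 140 other genes of the pathway were listed in 6 groups, and 134 had enough reads to be tested in edgeR. None passed the false discovery rate in edgeR, and 16 (11.9%) were at an unadjusted p under 0.05, 11 higher and 5 lower, beside 15.7% of all genes tested. Their median log2 fold change was -0.0026. DESeq2 passed 2 of them, Cebpg and Os9, beside the 1.18% of its genes given above. Within libraries 6 to 15, 17 of 133 (12.8%) were at an unadjusted p under 0.05, 9 higher and 8 lower, beside 9.95% of all genes.

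The list of ATF4 and CHOP targets had 30 tested genes, 12 higher and 18 lower, with a median of -0.07. In it, 2 were higher and 1 lower at an unadjusted p under 0.05 (10%, beside 15.7% of all genes). The counts differed between sets of libraries. In libraries 6 to 15, 7 of 30 were higher (23.3%, beside 47.9% of all genes), with a median of -0.12 and 6 at an unadjusted p under 0.05 (20%, beside 9.95%), 2 higher and 4 lower. Between the others, 19 of 30 were higher (63.3%, beside 44.2%), with a median of 0.11 and 5 at that level (16.7%, beside 16.1%), 4 higher and 1 lower. In the test of the difference, 3 of 31 were at an unadjusted p under 0.05, all lower (9.68%, beside 10.9% of all genes in either direction and 5.44% lower). None passed the false discovery rate in edgeR. Cebpg encodes C/EBPγ, a partner of ATF4 on amino acid response elements. It spanned 26.5 to 41.3 CPM in controls with a median of 33.3, and 39.5 to 51.3 CPM after secretome with a median of 43.1. The groups overlapped by little, since 9 of 10 secretome muscles were above the highest control. Its log2 fold change was 0.36 ± 0.08 (edgeR adjusted p = 0.109, DESeq2 adjusted p = 0.00848). It was 0.28 within libraries 6 to 15 (edgeR adjusted p = 0.45) and 0.45 between the others (edgeR adjusted p = 0.15).

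Pck2, a mitochondrial phosphoenolpyruvate carboxykinase, spanned 2.47 to 8.45 CPM in controls and 2.36 to 4.43 CPM after secretome, with 10 of 10 secretome muscles below the control median. Its log2 fold change was -0.65 ± 0.19 (edgeR adjusted p = 0.15). Vldlr, a lipoprotein receptor gene, spanned 305 to 564 CPM in controls and 372 to 650 CPM after secretome, with 10 of 10 above the control median and a log2 fold change of 0.35 ± 0.13 (edgeR adjusted p = 0.205). For Vldlr the value within libraries 6 to 15 was 0.39 ± 0.10 (edgeR adjusted p = 0.404), and there DESeq2 passed it alone among the pathway genes (adjusted p = 0.0463), beside 0.24% of its genes with an adjusted p in those libraries. Cebpg and Vldlr were higher and Pck2 was lower in both sets of libraries. Atf4 itself was at -0.0085 within libraries 6 to 15 and at -0.16 between the others.

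Cytosolic aminoacyl-tRNA synthetases, which load amino acids on tRNA and are raised by ATF4, were listed together with the tRNA exporter gene Xpot. Of 19 tested, 13 were higher over all 20 libraries, with a median of 0.07. At an unadjusted p under 0.05 there was 1 (5.26%, beside 15.7% of all genes). That was Xpot, at 30.6 ± 4.77 CPM in controls and 35.8 ± 1.52 CPM after secretome (SD, n = 10 each), with a log2 fold change of 0.23 ± 0.08 (edgeR adjusted p = 0.204). The list differed between sets of libraries. Between libraries 1 to 5 and 16 to 20, 18 of 19 were higher, with a median of 0.20, where 44.2% of all genes were higher. In libraries 6 to 15, 4 of 19 were higher, with a median of -0.04, where 47.9% of all genes were higher. In the test of that difference, 9 of 19 were at an unadjusted p under 0.05, all lower, beside 10.9% of all genes in either direction and 5.44% lower. None passed the false discovery rate in edgeR. Lars1 showed it, at 36.2 to 42.5 CPM in controls 1 to 5, 47.6 to 67.4 CPM in controls 6 to 10, 50.3 to 60.0 CPM in secretome libraries 11 to 15 and 48.2 to 61.4 CPM in secretome libraries 16 to 20. The first set was below the other 3 in every library. Controls 1 to 5 and 6 to 10 were both given saline, so this gap also lay between ranges of the same treatment. With a term for the 3 library ranges the log2 fold change of Lars1 was -0.037 (edgeR adjusted p = 0.938).

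**Figure D5:**
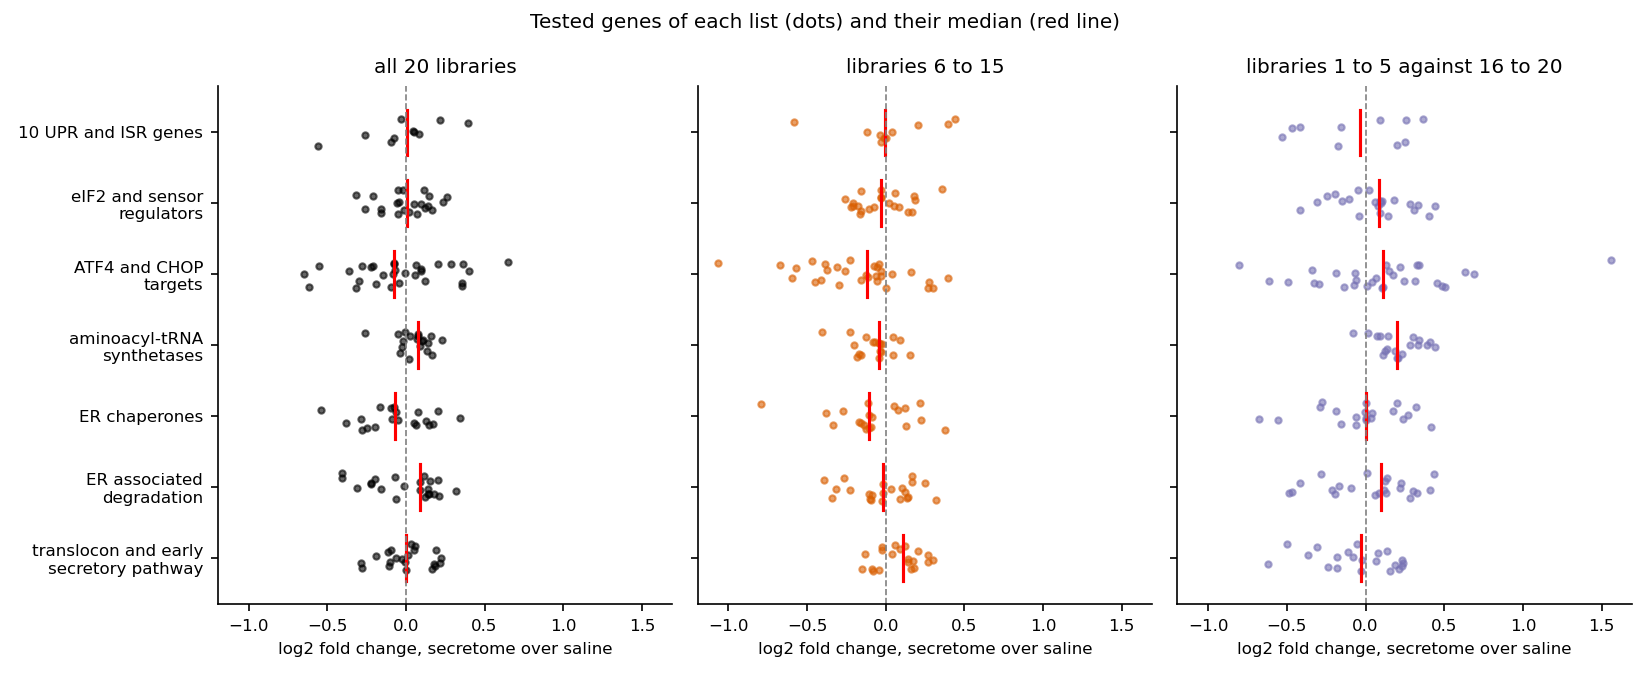
Log2 fold change of secretome over saline (x axis) for each tested gene (dots, spread vertically at random) of the 10 UPR and ISR genes and the 6 other lists (y axis), with list medians in red, in 3 sets of libraries. Medians lie between -0.07 and 0.09 over all 20 libraries, and the aminoacyl-tRNA synthetases move from -0.04 within libraries 6 to 15 to 0.20 between the others.

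Among ER chaperones and folding enzymes, 8 of 20 tested genes were higher and 12 lower, with a median of -0.07. The unadjusted p was under 0.05 for 3 higher genes and 1 lower gene (20%, beside 15.7% of all genes). Fkbp2, an ER prolyl isomerase, was at 4.36 ± 1.97 CPM in controls and 2.99 ± 0.546 CPM after secretome (SD, n = 10 each), with a log2 fold change of -0.54 ± 0.21 (edgeR adjusted p = 0.229). Erp44, which retains cargo with exposed thiols, was at 20.8 ± 5.80 CPM and 26.4 ± 3.88 CPM (SD, n = 10 each), with a log2 fold change of 0.34 ± 0.14 (edgeR adjusted p = 0.246). Dnajc10, an ER reductase with a J domain, had a log2 fold change of 0.15 ± 0.06 (edgeR adjusted p = 0.274), and 5 of 10 secretome muscles were above its highest control. Erp44 and Dnajc10 were among the listed genes that did not follow Hspa5 (r = 0.02 and 0.15).

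In ER associated degradation, 12 of 22 tested genes were higher and 10 lower, with a median of 0.09. The unadjusted p was under 0.05 for 2 higher and 3 lower genes (22.7%, beside 15.7% of all genes). Os9, a lectin that delivers misfolded glycoproteins to the ubiquitin ligase, spanned 11.03 to 17.6 CPM in controls with a median of 14.8, and 7.77 to 13.1 CPM after secretome with a median of 10.6. All 10 secretome muscles were below the control median and 6 were below the lowest control. Its log2 fold change was -0.41 ± 0.10 (edgeR adjusted p = 0.109, DESeq2 adjusted p = 0.0258), and it was -0.32 within libraries 6 to 15 and -0.49 between the others. Aup1, which recruits ubiquitin-conjugating enzyme to the ER, was at 45.8 ± 4.58 CPM in controls and 39.3 ± 3.65 CPM after secretome (SD, n = 10 each), with 5 of 10 below the lowest control and a log2 fold change of -0.22 ± 0.07 (edgeR adjusted p = 0.18). Edem3, which trims mannose from misfolded glycoproteins, had the opposite sign, at 45.4 ± 9.81 and 56.7 ± 4.44 CPM (SD, n = 10 each) and a log2 fold change of 0.32 ± 0.11 (edgeR adjusted p = 0.189).

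The remaining lists had medians of 0.0047 and -0.0024 over all 20 libraries. Of 22 tested eIF2 kinases, phosphatase and eIF2 subunits and sensor processing genes, 11 were higher and 11 lower. The unadjusted p was under 0.05 for 1 of them (4.55%, beside 15.7% of all genes). That was Eif2s3x, a subunit of eIF2, at 39.1 ± 7.62 CPM in controls and 46.1 ± 3.33 CPM after secretome (SD, n = 10 each), with a log2 fold change of 0.24 ± 0.10 (edgeR adjusted p = 0.264). Eif2s3x has a close copy on the Y chromosome of these male mice, and its count is uncertain where reads fit both. Eif2s2 and Eif2b2 had log2 fold changes of 0.26 and -0.16 (edgeR adjusted p = 0.336 and 0.342).

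Of 21 tested translocon, signal peptidase and early secretory genes, 10 were higher and 11 lower. At an unadjusted p under 0.05 there were 2, both higher (9.52%, beside 15.7% of all genes in either direction and 6.52% higher). They were the COPII coat gene Sec23b and the translocon gene Ssr3, each at 0.22 (edgeR adjusted p = 0.3 and 0.312). In libraries 6 to 15, 13 of 20 were higher, with a median of 0.11. There, 3 were at an unadjusted p under 0.05, all higher (15%, beside 9.95% of all genes in either direction and 5.02% higher). Between the others, 9 of 21 were higher, with a median of -0.03 and 4 at that level, all lower (19%, beside 16.1% in either direction and 9.56% lower). DESeq2 had 5 of 21 at that level over all libraries, all higher (23.8%, beside 9.26% of its genes in either direction). Of its 32456 genes, 1244 were higher at that level, but these were not filtered for low counts. Ssr3 was at 0.30 ± 0.09 within libraries 6 to 15 (edgeR adjusted p = 0.416), and the signal peptidase subunit gene Spcs3 was at 0.19 over all libraries (edgeR adjusted p = 0.32). Lars1 and Rars1 had log2 fold changes of 0.17 and 0.14 over all libraries (edgeR adjusted p = 0.414 and 0.441).

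The listed genes with too few reads for the edgeR test included stress-induced secreted factors. DESeq2, without that filter, tested all 140 listed genes over all 20 libraries. Gdf15 had at most 13 reads in a library and Fgf21 at most 10, with group totals of 51 and 56 reads for Gdf15 and 47 and 30 reads for Fgf21 (controls and secretome). The cystine transporter gene Slc7a11 had at most 66 reads and Fkbp11 at most 19, and Ern2 had 1 read in all 20 libraries. Derl3, an ER degradation gene, had 64 reads in controls and 11 after secretome, and 38 of them were in control 6, the library with the highest sum of B and plasma cell markers, 761 CPM. The part of such cells in the Derl3 reads was not tested.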

How the data were processed

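The authors depleted ribosomal RNA, built 1 stranded library per quadriceps and deposited whole-number counts of reads per gene, not normalized. The submitters' processing notes name cutadapt 1.16, STAR 2.7.9a, featureCounts 1.6.3, DESeq2 1.34.0 and GRCm39; the annotation release and strand setting are not given in the sources used here. Groups came from the sample labels. Symbols and exon lengths came from GENCODE M21. Genes were filtered with filterByExpr, TMM normalized and tested with the robust quasi-likelihood test of edgeR 4.0.16 in R 4.3.3, treatment as the only term, with Benjamini-Hochberg adjustment at 5% over all genes tested. The difference between library sets was tested as an interaction. Standard errors were derived by dividing each log2 fold change by the square root of its F statistic. Log2 CPM used a prior count of 2. Alternatives were DESeq2 1.42.0, RLE factors, no filter, a 10% threshold, Ttn left out, a range term, a replicate block and each library left out. Named genes were the 10, the 3 smallest p of each list, genes past the false discovery rate, and the 3 genes most correlated with Hspa5, Ddit3 and Atf4. The 10 genes, the lists and the library ranges were chosen with earlier results of these data known. The procedure was tested on simulated counts.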

Additional observations from a re-analysis of the deposited data

Results flagged for a closer look

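In each group of 10 muscles, the highest and lowest log2 CPM of the 10 genes was tested by Dixon's criterion, over 20 groups, of which chance alone gives about 1. There were 4 values past it. Hspa5 in control 9 was at 8.25 on the log2 scale, with the next control at 7.30. Atf6 in control 2 was at 4.83, with the next control at 5.49. Dnajb9 in control 2 was at 3.21, with the next control at 4.39. Dnajb9 in secretome 9 was at 4.40, with the next secretome muscle at 4.97.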

How the results depend on the processing

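The count of the 10 genes past the false discovery rate was 0 under every alternative run, including DESeq2, RLE factors, no filter, a 10% threshold, Ttn left out and each library left out in turn. With a replicate block it was also 0. Same-numbered muscles correlated between -0.24 and 0.22, with 2 of 10 pairs above 0.1 and 0 of 10 closest to their own number. Library range was not subtracted, and same numbers fell in unlike ranges, so these values cannot show whether the numbers pair mice. No paired analysis was possible within libraries 6 to 15 because the groups share no number there. With a term for the 3 library ranges, the log2 fold change rests on libraries 6 to 15, the only range with both treatments. It is therefore no separate check from the fit of those libraries. Under that term it turned sign for Ddit3 (0.38), Ern1 (-0.0069), Herpud1 (-0.0435), Hspa5 (-0.13), Lars1 (-0.037) and Xbp1 (0.0282). Ern1 within libraries 6 to 15 was -0.0053 with no filter, and the cause of that change was not tested. DESeq2 passed 2 other pathway genes over all libraries and 1 within libraries 6 to 15. The number of the 10 genes at an unadjusted p under 0.05 over all libraries, 2, was 0 with the range term, where Atf6 and Dnajb9 both lost it, and with libraries left out it ran from 0 (without secretome 2 or secretome 5) to 4 (without control 8 or secretome 3). It was 1 within libraries 6 to 15 with no filter, where Atf6 lost it, and 1 to 3 there with libraries left out. With the range term the other pathway genes at that level went from 16 to 10. With each library left out, values ran from -0.14 to 0.0462 for Ddit3 over all libraries. Within libraries 6 to 15 they ran from -0.10 to 0.15 for Atf4, -0.14 to 0.12 for Eif2ak3, -0.0412 to 0.0443 for Ern1, -0.10 to 0.0080 for Herpud1, -0.24 to 0.25 for Hspa5 -0.0577 to 0.11 for Xbp1, 0.21 to 0.55 for Ddit3 and -1.04 to -0.25 for Trib3. The difference between library sets ran from -0.0174 to 0.29 for Atf4, -0.19 to 0.0654 for Atf6, -0.15 to 0.28 for Dnajb9 and -0.51 to 0.26 for Trib3. Trib3 had the fewest reads of the 10 genes, with 7 to 45 per library.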
